A study of Homo sapiens with 6 samples.

Results

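The genes studied here encode histones, the proteins that package DNA into nucleosomes. Members were chosen by gene symbol: the genes of the H1, H2A, H2B, H3 and H4 families that lie in the histone clusters, and the separately placed genes H1-7, H1-8, H1-10, H2AJ, H2AX, H2AZ1, H2AZ2, H3-3A, H3-3B and MACROH2A1. The rule found 88 probes for 79 genes, of 29377 probes and 19432 genes in all. It used no measured value, but the members were chosen with earlier results of these data known. Of the 79 genes, 69 are clustered and 10 are variants. A further 2 probes, for H1-10-AS1 and H1-9P, matched the rule by symbol but code for no protein and were left out.

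RNA was measured on 6 Illumina bead arrays of SNU638 cells, an established human gastric cancer line: 3 arrays of LAP2beta cells and 3 of mock cells. The LAP2beta cells are a stable line that overexpresses LAP2beta, an inner nuclear membrane protein that binds lamins and chromatin and is a product of the TMPO gene. They were made by co-transfection of a LAP2beta expression plasmid, driven by a CMV promoter, with a neomycin resistance plasmid, and transfected cells were selected with G418. Mock cells carry the vector without an insert and were derived in parallel. Which clone was arrayed is not given in the sources used here. Nothing says that replicates were grown separately, and so the p-values reflect array-to-array spread that may be technical.

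Clustered histone genes are transcribed mainly in S phase, when new DNA needs new nucleosomes. Their mRNAs have no introns and normally end in a stem-loop, bound by SLBP, in place of a poly(A) tail. Their transcription is driven by NPAT, a target of cyclin E and CDK2 that gathers at the histone clusters. Most variant histone genes are expressed through the cell cycle, give polyadenylated mRNA and replace the clustered forms at particular places in chromatin. The labelling kit primes on poly(A), and some clustered genes, H2BC12 and H2BC5 among them, are known to give polyadenylated transcripts as well. The probes cannot tell those forms apart, nor can bulk RNA tell fewer expressing cells from less RNA per cell.

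The median signal before normalization was 189.5 to 195.8 on the LAP2beta arrays, against 192.2 to 199.9 on the mock arrays, and 44.1% to 46.6% of probes per array were above background. A probe was above background on an array where its detection p-value was under 0.01. For mock replicate 3 the detection came from the rank of its signals, since no detection column bore its name. Probes above background on at least 3 of the 6 arrays were tested with limma on quantile-normalized log2 signals, and p-values were adjusted over all 13323 such probes (Benjamini-Hochberg, threshold 0.05). Each gene was read from its brightest tested probe. The 5 epithelial markers were all above background, the 5 fibroblast and the 4 endothelial markers were above background on too few arrays to be tested, and 2 of the 5 leukocyte markers, LYZ and CD79A, were tested. Of the 3 TMPO probes, the one annotated to the beta transcript and one of the 2 annotated to the alpha transcript did not exceed background on any array. The other alpha probe had log2 signals of 9.62, 9.86 and 9.79 in LAP2beta cells, against 9.61, 9.74 and 10.02 in mock cells (adjusted p = 0.943 from limma). The TMPO probes therefore do not show the overexpression on these arrays, and with no signal from the beta probe they cannot test it. The authors checked it by real-time PCR with primers for the beta form and by western blotting.

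Most of the clustered histone genes that could be tested had higher signals in LAP2beta cells than in mock cells. Of the 69 clustered genes, 23 had a probe that passed the filter on dim probes. Of these 23, 4 rose (H2BC12, H2BC5, H2AC19 and H4C14) and 0 fell, and 11 had a limma p under 0.05 before adjustment. Among all 9905 genes tested, 1.17% rose, 0.616% fell and 13.8% had an unadjusted p under 0.05. The log2 fold change of LAP2beta over mock was above 0 for 20 of the 23 genes, against 47.9% of all genes. Its median was 0.24 over the 23 genes, compared to -0.0068 over all genes. All 3 LAP2beta arrays lay above all 3 mock arrays for 11 of the 23 genes and below them for 0; among all genes these shares were 9.27% and 10.5%.

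The arrays carried the same replicate numbers in both groups, though no label or method says that arrays of equal number belong together. In these data the deviations of such arrays from their group means correlated, and other matchings were not compared. The comparison was therefore also fitted with the replicate number as a block (the paired fit). A pair here means arrays of equal number. In the paired fit 9 of the 23 clustered genes rose and 0 fell, which added H2AC6, H2AC25, H2BC21, H4C8 and H4C15. The paired fit called 3.55% of all genes higher and 2.88% lower. Over probes, it called 12 of the 35 tested histone probes, compared to 6 in the unpaired fit, all of them higher in LAP2beta cells. Within replicate numbers, 18 of the 23 clustered genes were higher in the LAP2beta array of all 3 pairs, against 20.9% of all genes. The median log2 difference within a pair was 0.33 for replicate 1, 0.28 for replicate 2 and 0.15 for replicate 3.

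The other 46 clustered genes had no probe above background on enough arrays. A gene near background can pass the filter through the group where it is higher, so counts over the 23 genes are not counts over the family. H4C8 is the extreme case, above background on 3 LAP2beta arrays and 0 mock arrays. Of the 74 clustered probes, 7 were above background on more LAP2beta than mock arrays and 1 on fewer. H4C15, called in the paired fit, was above background on 3 LAP2beta arrays and 2 mock arrays. Without H4C8, 4 of 22 clustered genes rose in the unpaired fit and 8 in the paired fit, against 1.17% and 3.55% of all genes. The clustered median stayed at 0.24. Read without the filter, 48 of the 69 clustered genes had a log2 fold change above 0, compared to 49.5% of all 19432 genes, and the median was 0.071. Among the 46 alone the median was 0.026, with 28 above 0. Of all 9527 genes with no tested probe, 51.2% were above 0, and their median was 0.0030. At the other end, the 15 clustered genes above background on all 6 arrays had a median of 0.32, and 13 of them were above 0.

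**Figure D1:**
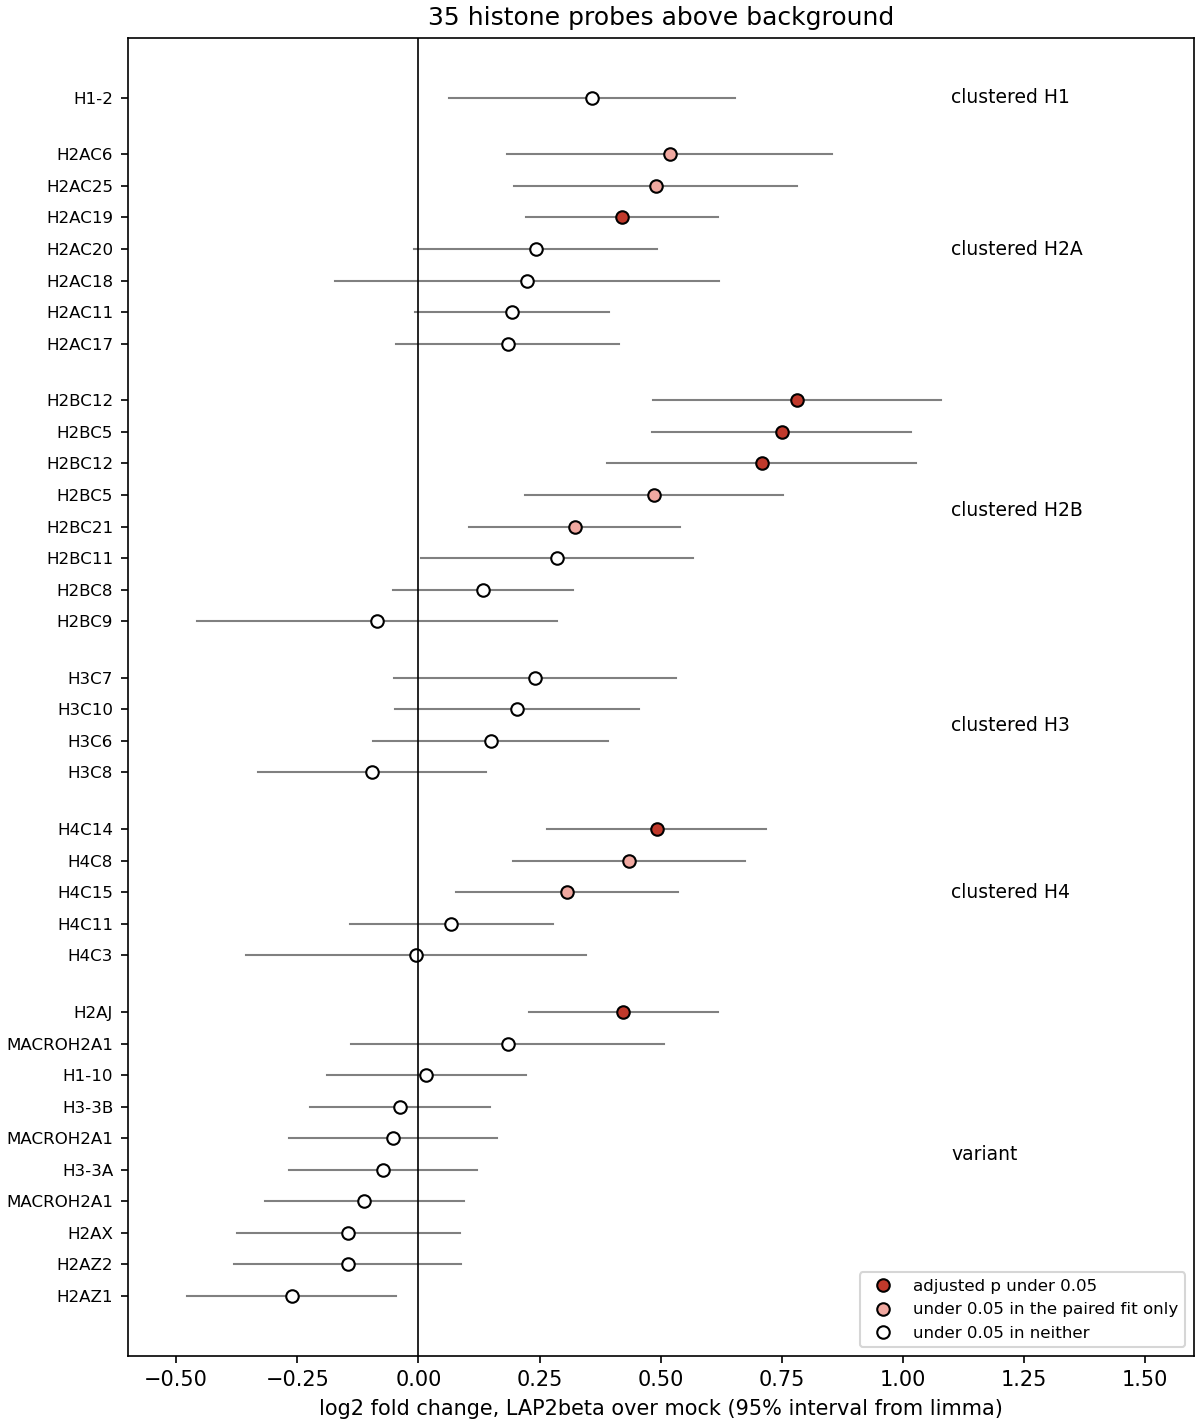
Log2 fold change of LAP2beta over mock for the 35 histone probes tested, with 95% intervals from limma, grouped by histone type with the variants at the bottom. Filled points mark an adjusted p under 0.05 and pale points those under it in the paired fit only. The H2B genes H2BC12 and H2BC5 stand furthest to the right at 0.78 and 0.75, and of the variants only H2AJ is filled, with 1 MACROH2A1 probe at 0.18 and an interval that holds 0.

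H2B genes encode a core histone that pairs with H2A in the nucleosome. Of 18 clustered H2B genes, 6 could be tested, with a median log2 fold change of 0.30. In the unpaired fit 2 rose and 0 fell, where 1.17% of all genes rose and 0.616% fell. H2BC12 was read by both of its probes. The brighter had log2 signals of 12.34, 12.27 and 12.34 in LAP2beta cells, against 11.21, 11.58 and 11.82 in mock cells. The LAP2beta arrays were nearly equal, while the mock arrays were spread widely, with mock replicate 1 lowest. H2BC12 was 1.72-fold higher in LAP2beta cells (95% interval 1.40 to 2.11, adjusted p = 0.0131 from limma). The dimmer H2BC12 probe gave 1.63-fold (1.31 to 2.04, adjusted p = 0.0363), with log2 signals of 9.96, 10.15 and 10.04 in LAP2beta cells, against 9.04, 9.29 and 9.69 in mock cells. Both probes thus ordered the mock arrays alike.

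H2BC5 had log2 signals of 10.41, 10.53 and 10.46 in LAP2beta cells, against 9.47, 9.71 and 9.97 in mock cells. The groups lay apart, again with mock replicate 1 lowest. The difference was 1.68-fold (95% interval 1.40 to 2.02, adjusted p = 0.00865 from limma). RefSeq gives H2BC5 earlier names of several other H2B genes too, and whether its probes also take up transcripts of such near copies was not tested. A dimmer H2BC5 probe, at 9.93, 9.93 and 9.79 in LAP2beta cells and 9.15, 9.40 and 9.64 in mock cells, gave 1.40-fold. It did not pass the unpaired fit (adjusted p = 0.0828) but passed the paired one (adjusted p = 0.0193), and another H2BC5 probe was above background on no array. H2BC21 had log2 signals of 8.26, 8.47 and 8.24 in LAP2beta cells, against 7.97, 8.11 and 7.92 in mock cells, a 1.25-fold difference (adjusted p = 0.167 from limma, 0.0315 in the paired fit). Its differences within pairs were nearly equal, from 0.30 to 0.35 on the log2 scale.

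The remaining H2B genes did not pass either fit. H2BC11 was at a log2 fold change of 0.29 and H2BC8 at 0.13, with LAP2beta above mock on all arrays for H2BC8 only. H2BC9 went the other way, at -0.09 (95% interval -0.46 to 0.29). It was lower in mock replicate 1, at a log2 signal of 8.13, than in mock replicates 2 and 3, at 8.73 and 8.81. The LAP2beta arrays lay between, at 8.36, 8.35 and 8.70.

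The sequences upstream of H2BC12 and H2BC5, which had the highest fold changes, and of H2BC21 are shown with the elements known from histone promoters. These are the 130 bases before the RefSeq start (GRCh38.p14), for H2BC12 at chr6:27146859-27146988, minus strand, for H2BC5 at chr6:26157991-26158120, plus strand and for H2BC21 at chr1:149886683-149886812, minus strand. H2BC12 and H2BC5 each had 2 RefSeq promoter windows, and only the first is printed. Capitals mark, in either orientation, the letters of 4 elements. The first is TATAAA and the second, further upstream, is CCAAT. The octamer ATTTGCAT is the third, and GGTCCG, found in H4 promoters, is the last.
H2BC12: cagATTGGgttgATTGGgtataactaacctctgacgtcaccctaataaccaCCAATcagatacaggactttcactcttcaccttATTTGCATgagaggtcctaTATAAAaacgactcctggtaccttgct
H2BC5: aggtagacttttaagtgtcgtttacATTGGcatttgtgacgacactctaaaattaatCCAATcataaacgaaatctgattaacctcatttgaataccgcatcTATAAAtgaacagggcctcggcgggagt
H2BC21: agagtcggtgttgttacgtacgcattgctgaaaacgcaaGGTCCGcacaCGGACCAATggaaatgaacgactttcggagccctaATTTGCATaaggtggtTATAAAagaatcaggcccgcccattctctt
The octamer, known to be bound by POU2F1 in H2B promoters, began 46 bases before the start in both H2BC12 and H2BC21. The printed H2BC5 window held none in these letters. All 3 held TATAAA and CCAAT, and in H2BC21 a CCAAT overlaps a reversed GGTCCG.

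The H2A genes that could be tested shared a sign, but those too dim to be tested did not. Of 17 clustered H2A genes, 7 could be tested, all with a log2 fold change above 0 and a median of 0.24. In the unpaired fit 1 rose and 0 fell, compared to 1.17% and 0.616% of all genes. Near background, H2AC11 passed the filter with 3 LAP2beta arrays and 1 mock array, and H2AC17 with 2 and 1. Among the untested, H2AC15 had mean log2 signals of 6.91 in LAP2beta and 7.10 in mock cells, and H2AC8 7.56 and 7.38. H2AC19 had log2 signals of 10.50, 10.38 and 10.32 in LAP2beta cells, against 9.93, 10.04 and 9.96 in mock cells. Here both groups were tight and did not overlap. It was 1.34-fold higher (95% interval 1.17 to 1.53, adjusted p = 0.0445 from limma). H2AC18 codes for the same protein as H2AC19 and is a near-identical copy, so the split of signal between their probes is uncertain. Their 130 upstream bases, compared position by position from each start without alignment, were equal at 36 positions. A shift between the annotated starts would lower that count, so it does not show whether the promoters differ. The H2AC18 probe gave 9.77, 9.22 and 8.90 in LAP2beta cells, against 9.15, 8.92 and 9.14 in mock cells, so that the groups overlapped (log2 fold change 0.22, adjusted p = 0.64). Its sign turned when LAP2beta replicate 1 was left out, to -0.012.

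H2AC6 had log2 signals of 8.64, 9.01 and 8.84 in LAP2beta cells, against 7.95, 8.55 and 8.44 in mock cells. The groups lay apart by little, and mock replicate 2 came near LAP2beta replicate 1. The 1.43-fold difference did not pass the unpaired fit (adjusted p = 0.147 from limma) and passed the paired fit (adjusted p = 0.00342). H2AC25, a gene of the small HIST3 cluster, had 10.41, 10.42 and 10.69 in LAP2beta cells, against 10.20, 9.73 and 10.13 in mock cells. Its lowest array was mock replicate 2 rather than mock replicate 1. The difference was 1.40-fold (adjusted p = 0.112 from limma, 0.0102 in the paired fit). The last of the H2A genes were H2AC20, H2AC11 and H2AC17, at log2 fold changes of 0.24, 0.19 and 0.18, which passed neither fit.

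The upstream bases of H2AC19 (chr1:149850931-149851060, plus strand) and H2AC6 (chr6:26124042-26124171, plus strand) are shown with those of H2AC25 (chr1:228457874-228458003, minus strand), since H2AC19 passed both fits and the others the paired one. Build, length and capitals are as above.
H2AC19: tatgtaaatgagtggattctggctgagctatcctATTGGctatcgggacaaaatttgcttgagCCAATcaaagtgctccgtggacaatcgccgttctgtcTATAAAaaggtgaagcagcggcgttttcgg
H2AC6: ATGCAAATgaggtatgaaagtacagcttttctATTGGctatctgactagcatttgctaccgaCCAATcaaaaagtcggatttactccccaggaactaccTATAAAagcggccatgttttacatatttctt
H2AC25: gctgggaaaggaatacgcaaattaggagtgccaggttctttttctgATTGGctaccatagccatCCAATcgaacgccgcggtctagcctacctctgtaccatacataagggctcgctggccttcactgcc
Each held CCAAT at 2 places, and H2AC19 and H2AC6 held TATAAA close to the start. H2AC25 held no TATAAA, as was so for 5 of 16 clustered H2A genes with a promoter in the table. An octamer in reverse lay at the far end of the H2AC6 window. H2AC6 is transcribed away from H2BC4, and 246 bases separate their starts, so the H2AC6 window is upstream of both.

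H4 genes encode the histone that pairs with H3. Of 14 clustered H4 genes, 5 could be tested, with a median log2 fold change of 0.31. In the unpaired fit 1 rose and 0 fell, compared to 1.17% and 0.616% of all genes. H4C14 had log2 signals of 8.79, 8.82 and 8.81 in LAP2beta cells, against 8.30, 8.14 and 8.50 in mock cells. The LAP2beta arrays were almost equal and stood apart from every mock array. The difference was 1.41-fold (95% interval 1.20 to 1.64, adjusted p = 0.0397 from limma). H4C15, a near-identical copy of H4C14, had 8.25, 8.04 and 8.05 in LAP2beta cells, against 7.91, 7.85 and 7.65 in mock cells. It was 1.24-fold higher and passed the paired fit only (adjusted p = 0.205 from limma, 0.0484 paired), and the split of signal between these 2 genes is uncertain.

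H4C8 had log2 signals of 7.99, 8.03 and 8.20 in LAP2beta cells, against 7.44, 7.70 and 7.77 in mock cells. Since no mock array was above background, the mock level is uncertain. Set against the lowest signal above background on each mock array, H4C8 was on average 1.26-fold higher. That value takes no account of the spread between arrays and is not a strict minimum. The 95% limma interval of the measured 1.35-fold difference reached down to 1.14-fold. H4C8 was kept for testing through its LAP2beta arrays alone, so its p-values (adjusted p = 0.0853 from limma, 0.00763 in the paired fit) are not independent of the filter. H4C3 and H4C11 passed neither fit. H4C3 had 14.78, 14.93 and 14.94 in LAP2beta cells, against 14.46, 15.01 and 15.19 in mock cells, a log2 fold change of -0.0052 (95% interval -0.36 to 0.35). Its lowest array was mock replicate 1, as for H2BC12, while mock replicates 2 and 3 were its highest. H4C11 was at 0.068 (-0.14 to 0.28).

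The upstream bases of H4C14 (chr1:149832527-149832656, plus strand) and H4C8 (chr6:26285535-26285664, minus strand) show a different layout from those of the H2A and H2B genes.
H4C14: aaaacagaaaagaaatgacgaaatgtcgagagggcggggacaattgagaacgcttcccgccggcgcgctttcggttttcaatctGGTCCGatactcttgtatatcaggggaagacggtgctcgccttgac
H4C8: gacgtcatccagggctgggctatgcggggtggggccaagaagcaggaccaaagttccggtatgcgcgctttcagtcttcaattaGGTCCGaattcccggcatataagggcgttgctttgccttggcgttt
Neither held TATAAA in this window, and neither held a CCAAT box or an octamer. Both held GGTCCG 46 bases before the start, part of an element that HINFP is known to bind in H4 promoters. H4C15 is not printed because its 130 bases equal those of H4C14 at all 130 positions.

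H3 genes encode the histone whose tail carries many of the known chromatin marks. Of 14 clustered H3 genes, 4 could be tested, and none passed either fit, with 0 under an unadjusted limma p of 0.05. H3C7 was at a log2 fold change of 0.24 (95% interval -0.05 to 0.53), H3C10 at 0.20 (-0.05 to 0.46), H3C6 at 0.15 (-0.09 to 0.39) and H3C8 at -0.10 (-0.33 to 0.14). The groups overlapped for all 4. H3C7 had log2 signals of 7.97, 8.39 and 8.25 in LAP2beta cells, against 7.82, 7.87 and 8.20 in mock cells.

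Linker histone H1 binds the DNA between nucleosomes. Of its 6 clustered genes only H1-2 could be tested. H1-2 had log2 signals of 11.07, 10.62 and 10.66 in LAP2beta cells, against 10.32, 10.34 and 10.63 in mock cells. LAP2beta replicate 1 was high, and mock replicate 3 reached the level of the other LAP2beta arrays. The log2 fold change of 0.36 (95% interval 0.06 to 0.65) did not pass (adjusted p = 0.259 from limma, 0.0941 in the paired fit).

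**Figure D2:**
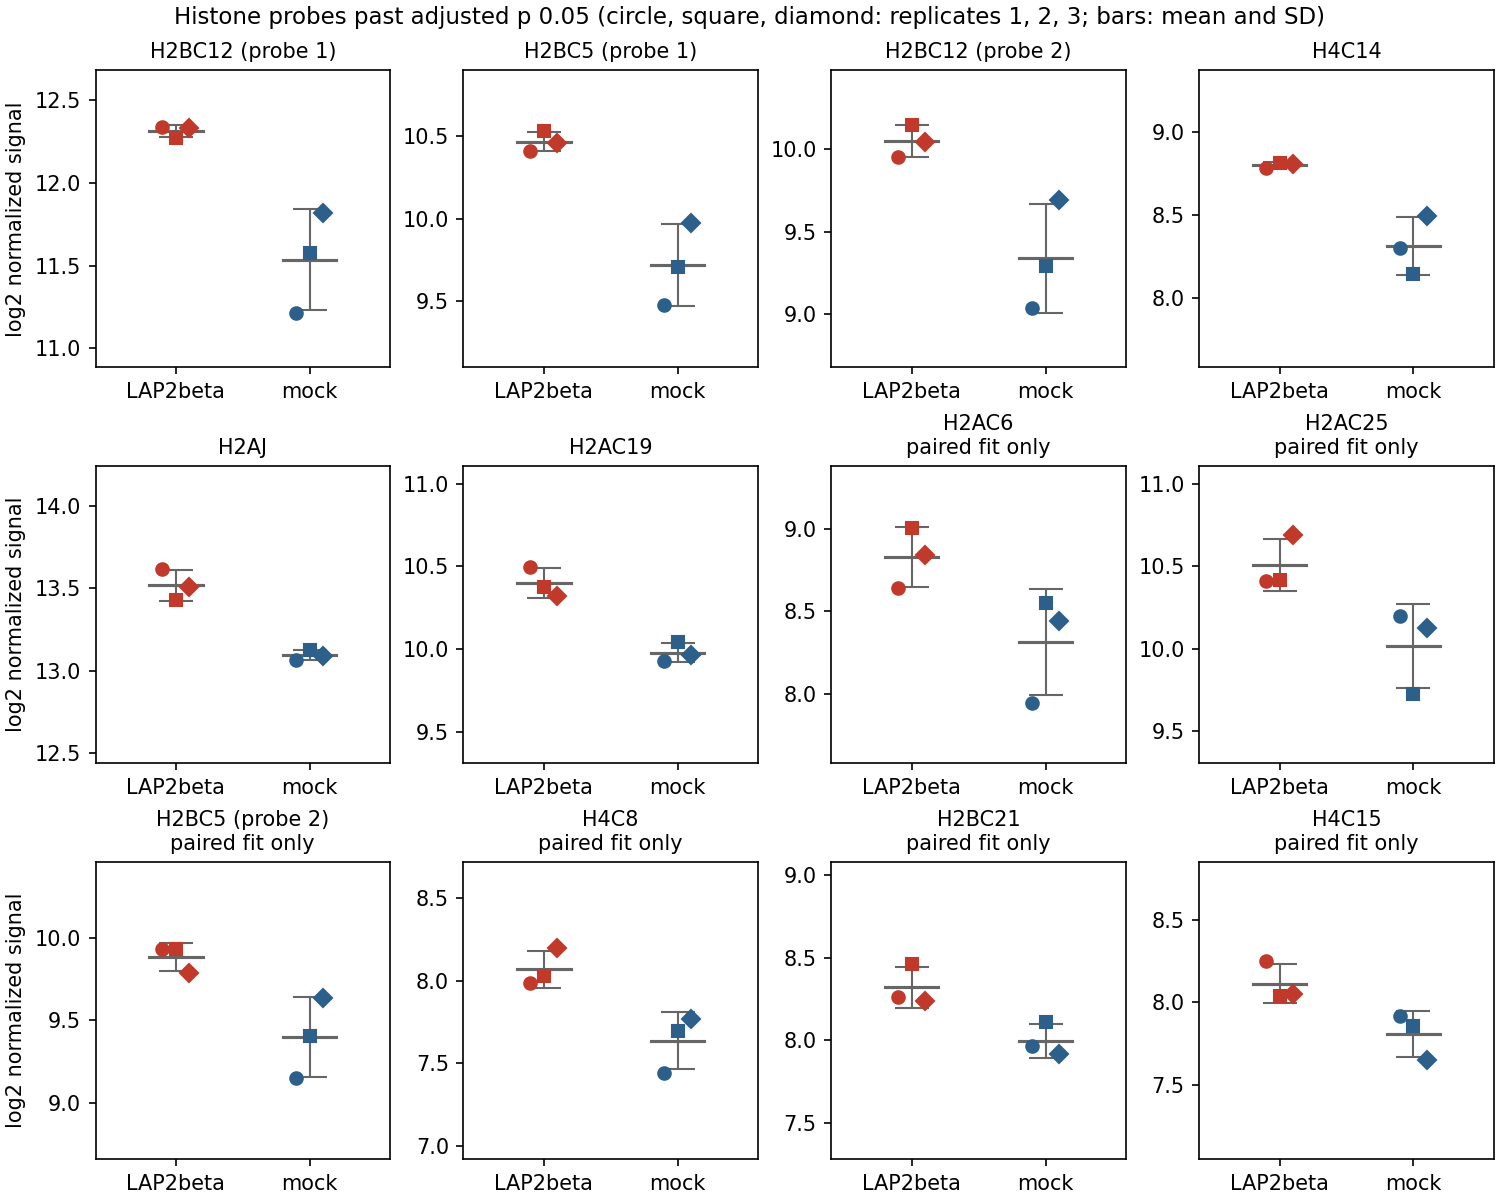
Log2 normalized signals on each array (circle, square and diamond for replicates 1, 2 and 3) with mean and SD, for the 12 histone probes past adjusted p 0.05 in either fit, LAP2beta at the left of each panel. The 3 LAP2beta points lie above the 3 mock points in every panel, as they did for 9.27% of all genes tested. The H2BC12 and H2BC5 panels show mock replicate 1 lowest.

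By genomic cluster, the HIST1 genes on chromosome 6 had a median log2 fold change of 0.20 over 16 tested of 54, and 2 rose. The HIST2 genes on chromosome 1 had a median of 0.31 over 6 tested of 11, all 6 above 0, and 2 rose. HIST3 was represented by H2AC25 alone of 3 genes, and the single HIST4 gene, H4C16, could not be tested. No cluster held a gene that fell. Among all genes tested 1.17% rose and only 0.616% fell.

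Neighbouring genes gave few chances for comparison. Among the genes with RefSeq starts, 13 pairs of histone genes were transcribed away from each other with under 1000 bases between their starts, and both genes were tested in 3 pairs. H2BC21 and H2AC20, 236 bases apart, were at log2 fold changes of 0.32 and 0.24. H2BC11 and H2AC11, 248 bases apart, were at 0.29 and 0.19. H3C7 and H2BC9, with 979 bases between, differed in sign at 0.24 and -0.09, each with an interval that held 0.

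CCAAT, ATTTGCAT and GGTCCG differed in frequency between histone types, while TATAAA was spread over all of them. Of the 79 genes, 74 had a promoter in the RefSeq table. CCAAT, which NF-Y is known to bind, stood in the 130 bases before the start of 16 of 16 clustered H2A, 17 of 18 H2B, 12 of 12 H3 and 6 of 6 H1 genes, but in 3 of 12 H4 genes and 8 of 10 variants, compared to 25.5% of all 27305 genes in the table. GGTCCG stood in 11 of 12 H4 genes, compared to 6.44% of all. ATTTGCAT stood in 13 of 18 H2B and 5 of 16 H2A genes, compared to 1.13% of all. TATAAA stood in 3 of 6 H1, 11 of 16 H2A, 8 of 18 H2B, 9 of 12 H3 and 5 of 12 H4 genes and in 4 of 10 variants, compared to 7.45% of all. Both strands were searched for each, and a gene counted where any of its promoter windows held the letters. A match is a run of letters, not a measured site.

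Variant histone genes mostly had log2 fold changes below 0. Of 10 variant genes, 8 were tested, and in both fits 1 rose (H2AJ) and 0 fell. Of all genes, 1.17% rose and 0.616% fell in the unpaired fit, and 3.55% and 2.88% in the paired fit. An unadjusted limma p under 0.05 was found for 2 of the 8, where 13.8% of all genes had one. The median log2 fold change was -0.09, with 2 genes above 0 and 6 below, compared to 52.1% of all genes below 0. H1-7 and H1-8, which are germ cell forms, could not be tested.

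H2AJ, a replication-independent H2A, had log2 signals of 13.61, 13.43 and 13.50 in LAP2beta cells, against 13.06, 13.12 and 13.09 in mock cells. Both groups were tight and lay apart. It was 1.34-fold higher in LAP2beta cells (95% interval 1.17 to 1.53, adjusted p = 0.0401 from limma). The other H2AJ probe was above background on no array. The 130 bases before its start (chr12:14774275-14774404, plus strand) are shown beside those of the clustered H2A genes.
H2AJ: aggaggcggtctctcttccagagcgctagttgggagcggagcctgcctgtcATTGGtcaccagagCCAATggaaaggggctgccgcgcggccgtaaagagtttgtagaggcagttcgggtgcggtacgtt
H2AJ held CCAAT in both orientations and no TATAAA, as H2AC25 did.

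H2AZ1, a variant placed at promoters, went the opposite way without passing. It had log2 signals of 14.89, 15.01 and 15.14 in LAP2beta cells, against 15.17, 15.36 and 15.30 in mock cells. Every LAP2beta array lay below every mock array, though the nearest differed by little. The log2 fold change was -0.26 (95% interval -0.48 to -0.05, adjusted p = 0.259 from limma, 0.0818 in the paired fit). Its relative H2AZ2 was at -0.15 and H2AX, whose phosphorylated form marks DNA breaks, at -0.14, with overlapping groups and intervals that held 0.

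The replacement H3 genes H3-3A and H3-3B, which encode one protein, were at log2 fold changes of -0.07 (95% interval -0.27 to 0.12) and -0.04 (-0.22 to 0.15). MACROH2A1, an H2A with a large macro domain found on silent chromatin, had 3 tested probes at -0.11, -0.05 and 0.18, none past the threshold. The probes thus disagreed in sign. H1-10 was at 0.017 (95% interval -0.19 to 0.22). It turned to -0.15 with median scaling and -0.16 with no normalization between arrays, where the median of all tested probes was -0.13 and -0.14, and to -0.036 without LAP2beta replicate 2 and -0.028 without mock replicate 2.

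**Figure D3:**
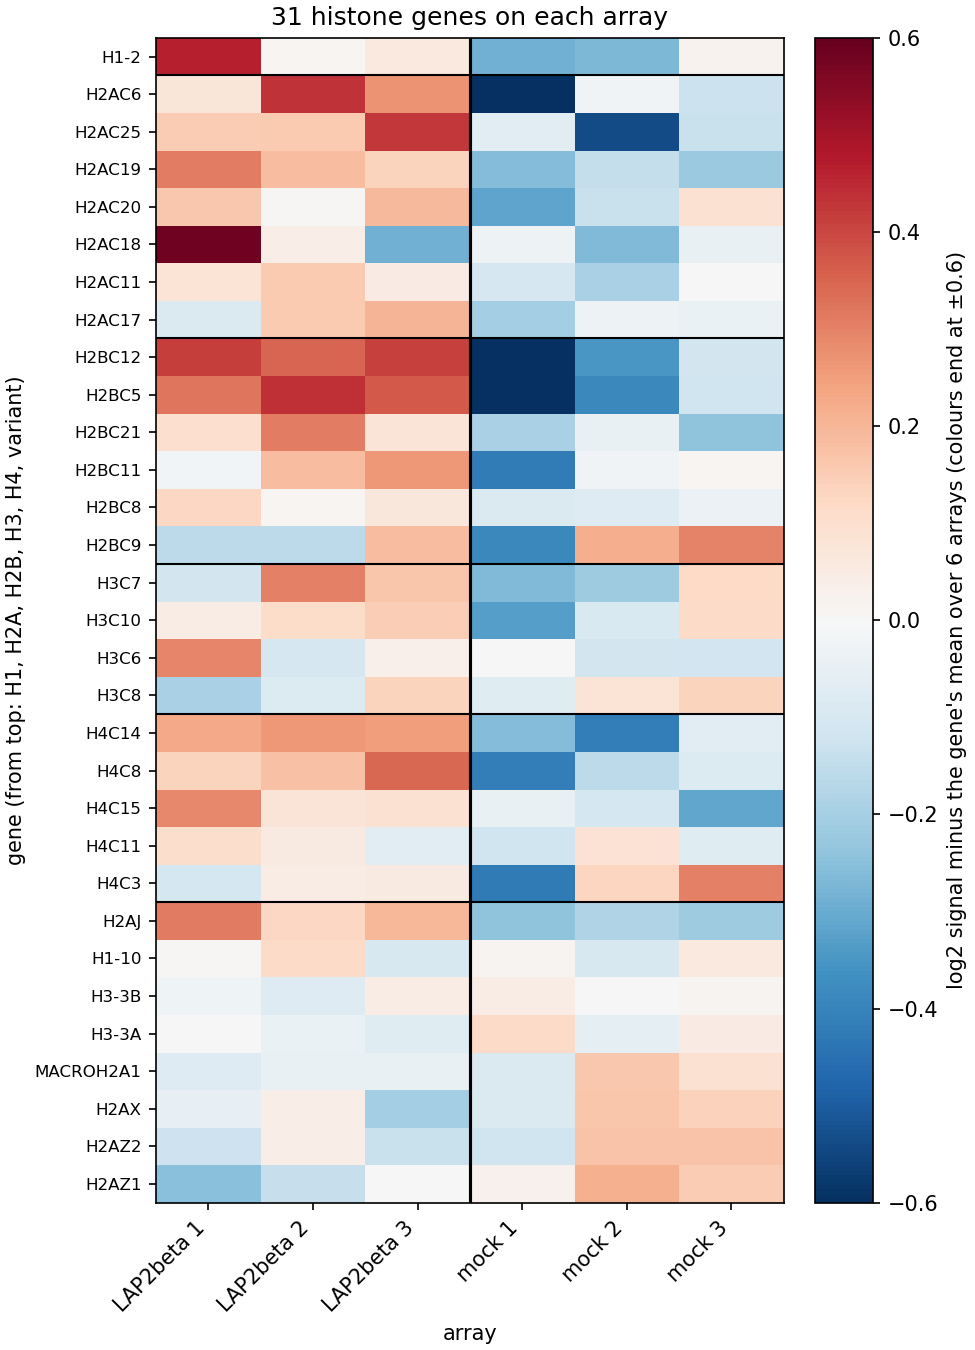
Log2 signal of each of the 31 tested histone genes on each array minus the gene's mean over the 6 arrays, LAP2beta arrays at the left and mock arrays at the right, with colours ending at ±0.6. Red marks signals above the gene's mean and blue those below. Clustered genes are mostly red at the left and blue at the right, most deeply in mock replicate 1, and of the variants at the bottom only H2AJ has that pattern throughout.

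The arrays did not contribute equally. Mock replicate 1 held the lowest signal of 15 of the 23 clustered genes, mock replicates 2 and 3 of 3 each, LAP2beta replicates 1 and 3 of 1 each. The highest signal lay on a LAP2beta array for 21 of the 23. Without mock replicate 1 the clustered median was 0.19, compared to 0.24 with all arrays. Of the 8 variant genes, mock replicate 1 was lowest for 2.

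The calls were few enough for single arrays to decide them. All 6 probe calls were lost without LAP2beta replicate 2, without mock replicate 2 and with neqc background correction, where the adjusted p of H2BC5 was 0.0573, 0.0677 and 0.0509. Its log2 fold change there was 0.72, 0.74 and 0.86, compared to 0.75 with all arrays and no background correction. The number of calls was 2 without LAP2beta replicate 1, 1 without LAP2beta replicate 3, 4 without mock replicate 1 and 5 without mock replicate 3. Over 17 alternatives, the H2BC5 call held in 14, the H2BC12 calls in 13 and 12, H4C14 in 10, H2AJ in 7 and H2AC19 in 6, and every one of them kept its sign throughout. An exact two-sided permutation test of a single probe cannot go below 0.1 with 3 arrays against 3, or below 0.25 within 3 pairs. All 12 probes called in either fit reached those limits, but they were picked by limma on these same arrays. The limit of 0.1 means only that the groups did not overlap. Among all genes, LAP2beta lay wholly above mock for 9.27% and wholly below for 10.5%.

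None of the tested genes that act on histone genes or their mRNAs passed the unpaired fit. Among all genes only 1.17% rose in it and 0.616% fell. Of 19 tested genes of histone gene transcription, 0 passed the unpaired limma fit, 2 had an unadjusted p under 0.05 (13.8% of all genes did), and the median log2 fold change was -0.0054. CCNE1, a cyclin that activates CDK2, had log2 signals of 10.85, 10.99 and 10.94 in LAP2beta cells, against 11.16, 11.25 and 11.36 in mock cells. It was at -0.33 and fell in the paired fit (adjusted p = 0.129 from limma, 0.0333 paired). ATAD2, a chromatin ATPase and E2F coactivator, was at -0.31 and likewise fell in the paired fit only (adjusted p = 0.221 from limma, 0.0432 paired). Of the 19 genes 2 thus fell in the paired fit, which called 2.88% of all genes lower. NPAT was at -0.21 and HINFP at 0.0098, and neither passed, both named for their roles.

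Of 25 tested genes of histone mRNA processing and decay, 0 passed either fit, 0 had an unadjusted limma p under 0.05, and the median was -0.05. Those with the smallest p were ERI1, an exonuclease that trims the stem-loop, at -0.21, and TUT4, a uridyl transferase, at -0.21. SLBP, named for its role, was at -0.19 (adjusted p = 0.475). Of 31 tested chaperone and deposition genes, 0 passed either fit, 0 had an unadjusted p under 0.05, and the median was -0.05. The smallest p belonged to HAT1, which acetylates new H4, at -0.23, and CHAF1A, a subunit of the chaperone CAF-1, at -0.22.

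The replication and S phase genes had a median below 0. Of 41 tested, 0 passed the unpaired limma fit, 4 had an unadjusted p under 0.05, 30 were below 0, and the median was -0.11. Among all genes 13.8% had such a p and 52.1% were below 0. In the paired fit, which called 2.88% of all genes lower, CCNE1 and MCM4, a subunit of the replicative helicase, fell. MCM4 had log2 signals of 12.76, 12.94 and 12.92 in LAP2beta cells, against 13.01, 13.29 and 13.27 in mock cells (log2 fold change -0.32, adjusted p = 0.19 from limma, 0.0356 paired). The median log2 signal of the 41 genes was 11.22, 11.33 and 11.38 on the LAP2beta arrays, against 11.29, 11.50 and 11.51 on the mock arrays. The lowest of these was LAP2beta replicate 1 and the next mock replicate 1. For the clustered histone genes the same medians were 8.26, 8.39 and 8.25 on the LAP2beta arrays, against 7.95, 8.11 and 8.20 on the mock arrays. The part of S phase content in the histone values was not tested.

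The remaining lists gave little. Among lamina genes and LAP2, 12 were tested, 0 passed the unpaired limma fit and 1 had an unadjusted p under 0.05, against 13.8% of all genes; LBR, an inner membrane protein that binds lamin B and chromatin, was at -0.33 and fell in the paired fit (adjusted p = 0.32 from limma, 0.0381 paired). Of other histone variants, only CENPA and MACROH2A2 could be tested, at -0.06 and 0.07. Of the 5 epithelial markers, CDH1 was at 0.74 (adjusted p = 0.0579 from limma), and CDH1 and KRT8 rose in the paired fit. KRT19 was at 0.21, KRT18 at 0.022 and EPCAM at -0.17, with every LAP2beta array below every mock array for EPCAM, and none of these passed either fit. The summed linear signal of the 5 was 70266 to 70416 on LAP2beta arrays and 66867 to 71959 on mock arrays. For the 5 leukocyte markers the sums were 1983 to 2099 on LAP2beta arrays and 1846 to 1939 on mock arrays, which did not overlap. The sums of the 4 endothelial markers, all too dim to be tested, did not overlap either (555 to 581 against 530 to 553). Those of the 5 fibroblast markers, also too dim, overlapped (1384 to 1407 against 1340 to 1437). Sums without overlap thus also arose from signals near background. LYZ was at 0.18 and CD79A at 0.09, neither passed, and PTPRC, CD3E and CD14 had too little signal to be tested. The part of these markers in the histone values was not tested.

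**Figure D4:**
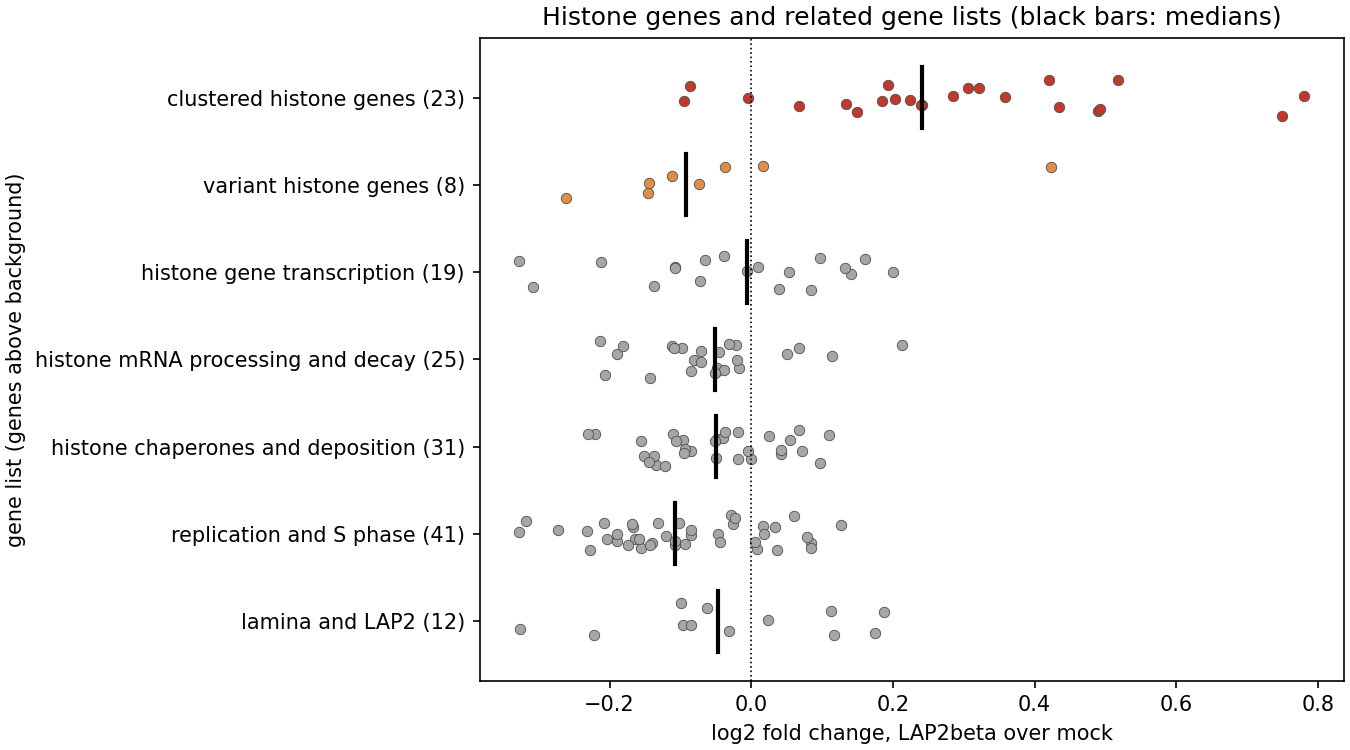
Log2 fold change of LAP2beta over mock for each tested gene of the clustered and variant histone genes and of the 5 related lists, with a black bar at each median. The clustered histone genes centre at 0.24, and the other rows centre between -0.11 and -0.0054.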

How the data were processed

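RNA of SNU638 LAP2beta and mock cells (3 arrays each) was labelled with a poly(A)-primed kit and hybridized to Illumina HT-12 arrays. The authors processed the scans with BeadStudio and quantile normalized them. They deposited linear intensity values before and after normalization, with detection p-values; the series matrix holds 29285 probes, whose intensity equals that of the normalized table within 0.001. Of the deposited detection p-value columns, 2 match no sample and were not used.

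Intensity before normalization was quantile normalized and log2 transformed here, and tested with limma 3.58.1 in R 4.3.3, after a test on simulated data. Deposited probes were named through the platform annotation and RefSeq; promoters are from RefSeq (GRCh38.p14). Because replicate numbers are shared and deviations from the group means correlated within numbers (0.544, 0.228 and 0.368), a fit with the replicate block was run beside it. The methods' t-test was an alternative, with other tables, background corrections, scalings, filters, variance options, probe choices and each array left out.

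Named were all histone probes past the threshold in either fit, all variants, the extremes of each histone type, and from each list the members past the threshold or the 2 with the smallest p. The members and lists were chosen with earlier results of these data known. The number of arrays limits the precision.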

Additional observations from a re-analysis of the deposited data

How the results depend on the processing

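The unpaired limma fit called 6 histone probes, all higher in LAP2beta cells. The count was 12 with the replicate block (paired fit), 3 with no normalization between arrays and 0 with neqc background correction, and 0 to 5 with an array left out. It was 14 by the methods' t-test at their threshold without adjustment (13 higher and 1 lower) and 0 after Benjamini-Hochberg. Other settings gave 4 to 6. The share of all tested probes under that unadjusted t-test threshold was not computed, so the 14 cannot be set against it. By limma, 13.8% of all genes had an unadjusted p under 0.05. The median of the clustered genes, 0.24, was 0.47 with neqc, 0.071 with no filter and 0.32 with detection on all 6 arrays, and 0.19 to 0.31 with an array left out. The median of the variant genes, -0.09, was -0.19 with median scaling and -0.21 with no normalization, settings in which the median of all tested probes was -0.13 and -0.14. No call changed sign under any alternative, and the paired fit lost none of them. Among single values of the called probes under these alternatives, 62 stayed past the threshold and 40 did not; the cause was not tested. Dim probes limit the rest: 53 of the 88 histone probes were not tested.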
